A study of Mus musculus with 6 samples.

Results

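Keratins and a small set of epithelial injury genes were followed in RNA sequencing of mouse lung tissue after lipopolysaccharide (LPS) or saline was instilled through the trachea. The 9 genes were picked by symbol: the simple keratins Krt7, Krt8, Krt18 and Krt19, the basal keratins Krt5 and Krt15, and Sfn, Lgals3 and Cdkn1a. All 9 were found among the 23183 genes of the tables, and 8 of them passed the filter on low values. The first group held 3 libraries from lungs instilled with LPS, a part of the outer membrane of Gram-negative bacteria that sets off inflammation, in mice of C57BL/6 background. The second held 3 libraries from saline-instilled lungs of the same background, labelled wild type. Titles name all 6 libraries as wild type, whereas the genotype field gives LCN2-/- for LPS 1 and LPS 2 and LCN4-/- for LPS 3. The sources used here do not give dose, time after instillation, age or sex.

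Keratins are the intermediate filament proteins of epithelial cells, built from pairs of a type I chain and a type II chain. Krt8 and Krt7 encode type II chains and Krt18 and Krt19 type I chains of simple epithelia such as the alveolar lining and the airway surface. Krt5 (type II) and Krt15 (type I) are keratins of basal cells, the stem cells of the airway. In mouse lung injury, alveolar type 2 cells on their way to type 1 cells pass through a transitional state that is known for high Krt8, Sfn, Lgals3, Cdkn1a and Cldn4 RNA.

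Values are given on the deposited log2(value + 1) scale, and each difference is the LPS mean less the saline mean. They were tested with limma across 13116 genes, with Benjamini-Hochberg adjusted p-values under 0.05 called. Library depth is unknown, and the scaling of the values is not stated, so levels of different genes are not compared with each other. Of all genes tested 50.1% were called, 25.7% higher and 24.3% lower in LPS. The values before the log summed to 854330 to 1004144 in LPS and to 543167 to 632723 in saline. When the libraries were scaled to equal sums, the median difference of all genes moved to -0.68, against 0.02 as deposited, and 798 genes were called higher and 8343 lower. Correlations across 10295 genes were 0.984 to 0.988 within LPS, 0.964 to 0.975 within saline and 0.824 to 0.932 between the groups. Each saline table held 3869 exact zeros, and the LPS tables held 5117 to 6223. Values above 0 but under 0.01 numbered 11 to 24 in LPS and 1505 to 1936 in saline. If the tables of the groups were made differently, processing and treatment cannot be told apart in the differences given here. Lcn2 had 13.60, 13.29 and 13.82 in LPS 1, 2 and 3, against 8.20, 11.28 and 10.11 in saline 1, 2 and 3, which goes against a knockout label for LPS 1 and LPS 2. If the genotype field were right, genotype and treatment could not be told apart in any difference given here. The LPS 3 table ends early and lacks 4484 genes, none of them among the 9.

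Under the deposited scaling, 6 of the 9 genes rose in LPS (Krt7, Krt8, Krt18, Sfn, Lgals3 and Cdkn1a), Krt15 fell, Krt19 did not pass the test and Krt5 was below the filter. Against the 25.7% of all genes called higher, 6 of 9 is a larger share, but the 9 were chosen with results of these data known. Krt15 passed the filter on low values through saline alone, so its passing is tied to its being higher there. Cdkn1a and Sfn stayed higher under the other scalings tried, whereas Krt7, Krt8, Krt18 and Lgals3 were not past the threshold with quantile normalization or with equal sums. In bulk lung RNA, more cells of a type and more RNA per cell cannot be told apart.

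**Figure D1:**
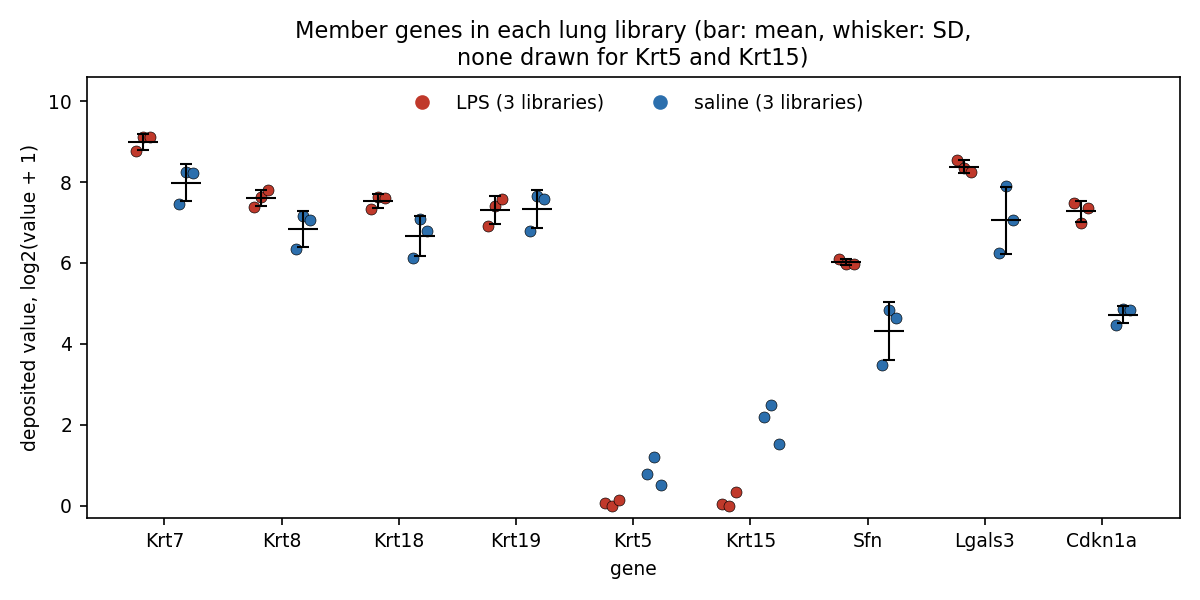
Deposited values (vertical axis, log2(value + 1)) of the 9 genes in the 3 LPS and 3 saline libraries. Points are libraries, bars the mean and whiskers the SD, which were left out for Krt5 and Krt15 because both hold an exact zero; the LPS points lie above the saline points for Krt7, Krt8, Krt18, Sfn, Lgals3 and Cdkn1a, below them for Krt5 and Krt15, and among them for Krt19.

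Cdkn1a encodes p21, the inhibitor of cyclin-dependent kinases that halts the cell cycle and is a main target of the tumour suppressor p53. It had 7.48, 6.99 and 7.36 in LPS 1, 2 and 3, against 4.48, 4.86 and 4.83 in saline 1, 2 and 3. Every LPS library lay far above every saline library, and the libraries within each group lay close together. Cdkn1a (ENSMUSG00000023067.14; chromosome 17, 29090976 to 29100727, plus strand, mm10) averaged 7.28 ± 0.26 in LPS and 4.72 ± 0.21 in saline (SD, n = 3 each). The difference was 2.55 (SE 0.19; limma adjusted p = 6.03e-05), or 5.87-fold on this scale. It was 2.10 with quantile normalization and 1.77 with equal sums, both past the threshold.

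The Cdkn1a upstream sequences are shown because p53 binding there is the best known route to p21. RefSeq (GRCm38.p6) gives the gene 2 start sites, and the 250 bases before each are printed 5′ to 3′ with motif matches in capitals. The first lies at chr17:29090729-29090978 and the second at chr17:29093519-29093768, both on the plus strand.
Cdkn1a, first start: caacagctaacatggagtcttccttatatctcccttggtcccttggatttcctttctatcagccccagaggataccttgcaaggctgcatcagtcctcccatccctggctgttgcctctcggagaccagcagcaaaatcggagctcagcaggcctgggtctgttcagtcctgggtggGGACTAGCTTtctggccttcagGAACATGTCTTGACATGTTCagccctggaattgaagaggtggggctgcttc
Cdkn1a, second start: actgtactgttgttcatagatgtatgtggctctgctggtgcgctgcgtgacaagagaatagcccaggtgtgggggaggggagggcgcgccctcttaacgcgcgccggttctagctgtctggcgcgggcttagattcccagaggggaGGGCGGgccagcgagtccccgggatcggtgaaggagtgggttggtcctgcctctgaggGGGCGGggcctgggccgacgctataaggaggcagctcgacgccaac
Motifs were searched on both strands: AP-1 (TGANTCA), SP1 (GGGCGG), the TATA box (TATAAA), and the NF-kB and p53 half-site consensus. The 20-base run of capitals before the first start, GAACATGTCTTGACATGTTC, holds a pair of abutting p53 half-sites with at most 1 mismatch and lies 51 to 32 bases upstream. That paired form was added to the search after the sequence had been seen, and it was present in 15 of 32841 RefSeq windows of the same length (0.0457%). The shorter run, GGACTAGCTT, is a single half-site, a form found in 7.13% of windows. The capitals before the second start are SP1 matches, which 32.7% of windows hold. A match describes letters only, and no binding was measured.

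Other p53 target genes moved in both directions. Of 26 tested, 10 rose and 4 fell, against 25.7% and 24.3% of all genes called higher and lower. Their median difference was 0.06, against 0.02 for all genes. The death receptor gene Fas (1.95, SE 0.22), the stress genes Gadd45b (1.85, SE 0.21) and Gadd45a (1.76, SE 0.18) and the kinase gene Plk3 (1.71, SE 0.22) rose most, with limma adjusted p-values of at most 0.000435. Further genes were picked after their values were seen. The p53 ubiquitin ligase gene Mdm2 had 5.22, 5.05 and 4.90 in LPS, against 4.43, 4.63 and 4.39 in saline, and rose by 0.57 (SE 0.15; limma adjusted p = 0.0117). The death effector gene Bax rose (1.35, SE 0.23; limma adjusted p = 0.00141), while Sesn1 fell (-1.22, SE 0.17; limma adjusted p = 0.000613). Phlda3 (0.01) and Ccng1 (-0.06) did not pass. Trp53, the gene for p53 itself, had 4.81 and 4.33 in LPS 1 and 2, with no value in LPS 3, against 4.36, 4.60 and 4.80 in saline, and these ranges overlapped. With equal sums 7 of the p53 targets were called higher and 16 lower.

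Other cell cycle genes were called at shares near or under those of all genes (25.7% higher, 24.3% lower). Among 12 tested, 2 rose and 3 fell, with a median of -0.10. These were cyclin-dependent kinase inhibitor, cyclin and kinase genes of the G1 phase and the replication gene Pcna. With quantile normalization 2 were called higher and 6 lower, and with equal sums 0 and 9. The inhibitor genes Cdkn2d (0.88, SE 0.21; limma adjusted p = 0.00800) and Cdkn2b (0.67, SE 0.15; limma adjusted p = 0.00597) rose, the second turning to -0.10 with equal sums, where Cdkn2d did not pass either (0.12). Cdkn2c fell, with 2.71, 2.97 and 2.98 in LPS, against 4.48, 4.63 and 4.19 in saline (-1.54, SE 0.16; limma adjusted p = 0.000179). Cdkn1b and Cdkn1c, the closest relatives of Cdkn1a, had differences of -0.27 (95% interval -0.62 to 0.07) and -0.32 (-0.65 to 0.02) and did not pass.

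Sfn encodes 14-3-3 sigma, the epithelial member of the 14-3-3 adaptor proteins and another p53 target. It had 6.10, 5.97 and 5.97 in LPS, against 3.49, 4.83 and 4.63 in saline. The LPS libraries were nearly level and all above the saline libraries, of which saline 1 was lowest. Sfn (ENSMUSG00000047281.3; chromosome 4, 133600556 to 133602168, minus strand, mm10) averaged 6.01 ± 0.08 in LPS and 4.32 ± 0.73 in saline (SD, n = 3 each), a difference of 1.70 (SE 0.30; limma adjusted p = 0.00197) or 3.24-fold. Without saline 1 the difference was 1.28, and with equal sums 0.92, each past the threshold. Relative to the mean of 13 pan-epithelial genes in the same library, Sfn stood at 1.24, 1.03 and 0.93 in LPS, against -1.07, 0.25 and -0.10 in saline, so the groups did not overlap on that measure, which was chosen after the values had been seen. Of the 6 other 14-3-3 genes, which most cells express, 4 rose and 0 fell, by smaller amounts of 0.53 (Ywhae) to 0.87 (Ywhaz). None of the 6 has a value in LPS 3. None of the 4 was past the threshold as higher with quantile normalization or with equal sums, and Ywhab, Ywhae and Ywhah turned to -0.041, -0.28 and -0.14 with equal sums.

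Krt7, Krt8 and Krt18 rose under the deposited scaling. Krt7 (ENSMUSG00000023039.17; chromosome 15, 101411043 to 101430313, plus strand, mm10) had 8.76, 9.11 and 9.11 in LPS, against 7.46, 8.26 and 8.23 in saline. Krt8 (ENSMUSG00000049382.10; chromosome 15, 101996698 to 102004482, minus strand) had 7.39, 7.62 and 7.80 in LPS, against 6.34, 7.16 and 7.05 in saline. Krt18 (ENSMUSG00000023043.7; chromosome 15, 102028180 to 102032027, plus strand) had 7.34, 7.64 and 7.61 in LPS, against 6.11, 7.09 and 6.80 in saline. In all these genes saline 1 was the lowest library, and the lowest LPS library, LPS 1, lay above the highest saline library, saline 2. Fully separate groups were seen in 63.4% of all genes tested. The differences were 1.01 for Krt7 (SE 0.25; limma adjusted p = 0.00940), 0.75 for Krt8 (SE 0.24; limma adjusted p = 0.0254) and 0.86 for Krt18 (SE 0.25; limma adjusted p = 0.0174), or 2.01-, 1.69- and 1.82-fold.

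These keratin calls were close to the threshold, and those of Krt8 and Krt18 ended with no filter on low values (limma adjusted p = 0.0660 and 0.0557). Leaving out LPS 2, LPS 3 or saline 1 ended the Krt8 call (0.74, 0.66 and 0.50; limma adjusted p = 0.0690, 0.0845 and 0.0721), and leaving out LPS 2 or LPS 3 ended that of Krt18 (0.81 and 0.82; limma adjusted p = 0.0578 and 0.0513). With quantile normalization the differences were 0.15 for Krt7, 0.11 for Krt8 and 0.24 for Krt18, and with equal sums 0.20, -0.045 and 0.066, none past the threshold. Reads of Krt8 may be shared with the 1 pseudogene that GENCODE names after it. Krt7, Krt8 and Cdkn1a each overlap an annotated transcript on the other strand, and the strand setting of the counting is not given.

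**Figure D2:**
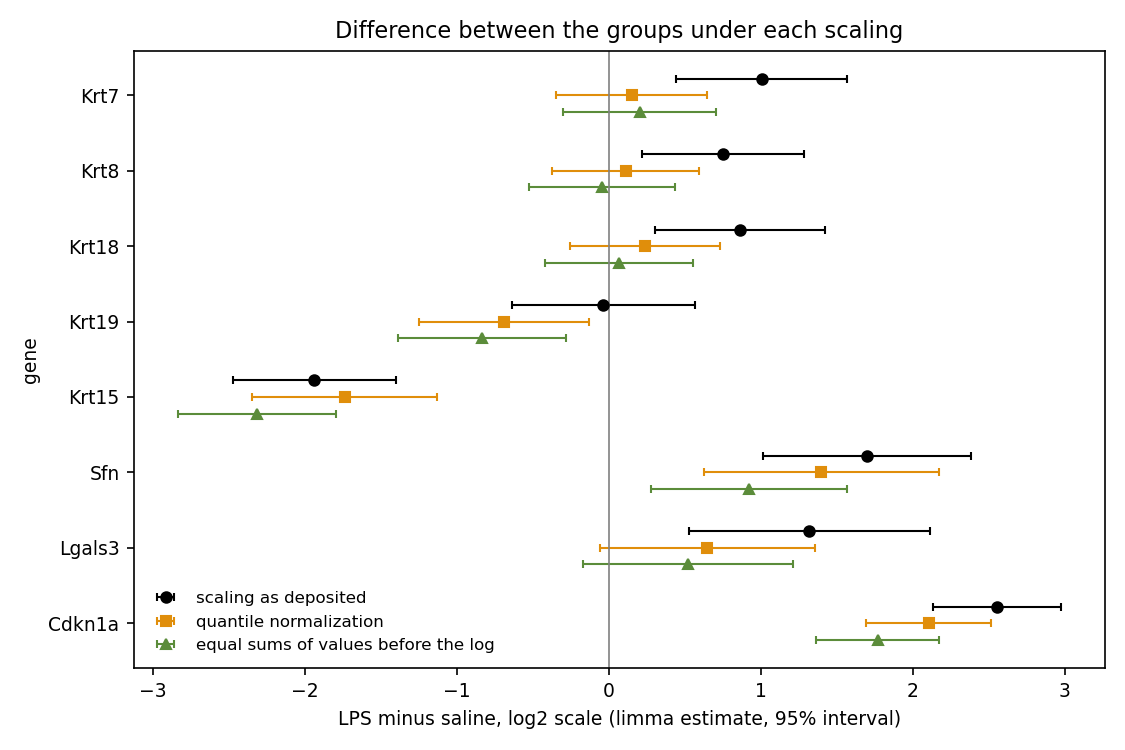
LPS minus saline (horizontal axis, log2 scale) for the 8 tested genes, with limma estimates as points and 95% intervals as bars, under the deposited scaling, quantile normalization and equal sums. Cdkn1a and Sfn stay right of 0 and Krt15, which passed the filter through saline alone, left of it in all versions. The intervals of Krt7, Krt8, Krt18 and Lgals3 include 0 in the rescaled versions, and Krt19 shifts from -0.04 to -0.69 and -0.84.

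The upstream sequences of Krt7, Krt8 and Krt18 are shown because these genes rose together and lie on one chromosome, with Krt8 and Krt18 head to head and 23698 bases apart in the GENCODE annotation. Each holds the 250 bases before the RefSeq start, 5′ to 3′ on the gene's strand: chr15:101412153-101412402 (plus) for Krt7, chr15:102004343-102004592 (minus) for Krt8 and chr15:102027966-102028215 (plus) for Krt18 (GRCm38.p6). Capitals mark SP1 matches.
Krt7: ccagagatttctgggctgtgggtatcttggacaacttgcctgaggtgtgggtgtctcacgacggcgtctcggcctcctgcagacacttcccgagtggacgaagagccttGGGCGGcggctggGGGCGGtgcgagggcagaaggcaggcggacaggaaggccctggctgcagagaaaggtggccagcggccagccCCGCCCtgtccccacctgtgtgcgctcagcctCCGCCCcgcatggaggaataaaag
Krt8: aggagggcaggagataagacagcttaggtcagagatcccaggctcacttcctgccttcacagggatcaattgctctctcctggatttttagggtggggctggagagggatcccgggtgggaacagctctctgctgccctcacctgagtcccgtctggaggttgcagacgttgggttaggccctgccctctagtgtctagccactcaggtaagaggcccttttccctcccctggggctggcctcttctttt
Krt18: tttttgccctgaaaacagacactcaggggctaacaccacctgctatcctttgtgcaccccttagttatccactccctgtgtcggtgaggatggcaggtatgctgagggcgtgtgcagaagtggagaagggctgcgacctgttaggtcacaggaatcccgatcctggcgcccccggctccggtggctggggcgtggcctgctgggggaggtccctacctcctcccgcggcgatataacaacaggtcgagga
Krt7 held 4 SP1 matches, and none of the letters searched for occurred in the Krt8 or Krt18 window. RefSeq entries were matched for 7 of the 9 genes, with none for Krt19 and Krt15.

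Krt19, a type I chain that lacks most of the tail domain, did not pass the test. It had 6.91, 7.42 and 7.57 in LPS, against 6.79, 7.65 and 7.57 in saline, and the groups overlapped over most of their range. Krt19 (ENSMUSG00000020911.14; chromosome 11, 100140810 to 100148665, minus strand, mm10) averaged 7.30 ± 0.35 in LPS and 7.34 ± 0.48 in saline (SD, n = 3 each), and the difference of -0.04 had a 95% interval of -0.64 to 0.56 (limma adjusted p = 0.915). It passed the threshold as lower with quantile normalization (-0.69; limma adjusted p = 0.0497) and with equal sums (-0.84; limma adjusted p = 0.0131).

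Differences between keratins within a library are less affected by the scaling between libraries. Krt19 minus Krt18 was -0.43, -0.22 and -0.04 in LPS, against 0.68, 0.56 and 0.78 in saline. Krt19 minus Krt8 was -0.48, -0.20 and -0.23 in LPS, against 0.45, 0.49 and 0.52 in saline. On both, every LPS library lay below every saline library. The sign of such a difference does not rank the genes, and its shift between the groups is what is compared. Krt19 minus Krt7 was -1.85, -1.69 and -1.54 in LPS, against -0.67, -0.61 and -0.66 in saline, again with no overlap. The shifts were -0.90, -0.79 and -1.04, and quantile normalization left them at -0.93, -0.80 and -0.84. Each had p = 0.1 in a two-sided exact permutation test, the smallest that 3 against 3 libraries allow, and 0.15 after Benjamini-Hochberg adjustment over the 6 pairs compared. These pairs with Krt19 were chosen after the values had been seen.

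Krt8 and Krt18 assemble with each other, and their difference overlapped between the groups. Krt8 minus Krt18 was 0.06, -0.02 and 0.18 in LPS, against 0.23, 0.07 and 0.26 in saline (mean shift -0.11; exact permutation p = 0.2). Krt7 minus Krt8 was 1.36, 1.49 and 1.31 in LPS, against 1.12, 1.10 and 1.18 in saline, with no overlap. Its shift of 0.25 (exact permutation p = 0.1) shrank to 0.041 with quantile normalization. Krt7 minus Krt18 shifted by 0.14 (exact permutation p = 0.2), or -0.085 with quantile normalization.

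**Figure D3:**
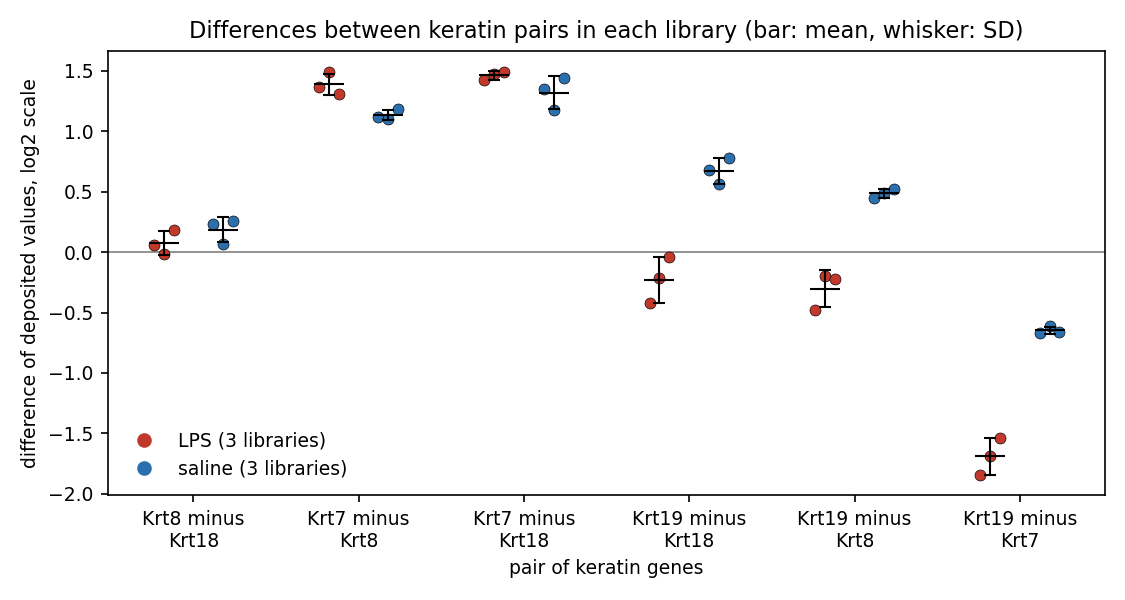
Difference between the deposited log2 values of 2 keratins (vertical axis) in each of the 3 LPS and 3 saline libraries, with mean and SD. The pairs that contain Krt19 separate the groups, with shifts of -0.90, -0.79 and -1.04. Krt7 minus Krt8 also separates them, with a smaller shift of 0.25, whereas Krt8 minus Krt18 and Krt7 minus Krt18 overlap.

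Pan-epithelial genes, which most epithelial cells express, also tended upward under the deposited scaling. Of 16 such genes tested 9 rose and 2 fell, with a median of 0.56, among them the epithelial transcription factor gene Elf3 (1.37, SE 0.15), the adhesion molecule gene Epcam (0.9985, SE 0.15) and the claudin gene Cldn7 (0.86, SE 0.17). With equal sums 1 was called higher and 6 lower. Krt8 minus the mean of the 13 with 6 values was 2.53, 2.67 and 2.76 in LPS, against 1.79, 2.58 and 2.32 in saline, and LPS 1 lay below saline 2. The shift of 0.43 did not pass (exact permutation p = 0.2) and was 0.21 without saline 1 and 0.02 with quantile normalization. Krt7 on this measure was 3.90, 4.16 and 4.07 in LPS, against 2.91, 3.68 and 3.50 in saline, with no overlap and a shift of 0.68. Krt18 was 2.48, 2.69 and 2.58 in LPS, against 1.56, 2.51 and 2.06 in saline, and overlapped. Krt19 was 2.05, 2.47 and 2.53 in LPS, against 2.24, 3.07 and 2.84 in saline.

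Genes on a list of keratin partners were called lower more often than higher. Of 18 tested, mostly desmosome, hemidesmosome and cytolinker genes, 7 fell and 2 rose, with a median of -0.51. The shares over all genes were 24.3% lower and 25.7% higher. Bmp1 and Vim, which belong to none of these classes, were also on the list, and neither passed. The laminin gene Lama3 (-1.82, SE 0.29), the junction gene Jup (-1.26, SE 0.21), the cytolinker gene Dst (-1.25, SE 0.19) and Dsp, for desmoplakin (-1.07, SE 0.19), which anchors keratin at desmosomes, fell most, with limma adjusted p-values of at most 0.00194. Dsp had 2.39, 2.52 and 2.56 in LPS, against 3.89, 3.16 and 3.62 in saline. The periplakin gene Ppl, named after its values were seen, rose (0.54, SE 0.20; limma adjusted p = 0.0460).

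The basal keratins were near or at 0 in LPS. Krt15 (ENSMUSG00000054146.8; chromosome 11, 100131758 to 100135928, minus strand, mm10) had 0.04, 0 and 0.34 in LPS, against 2.19, 2.49 and 1.52 in saline. Krt5 (ENSMUSG00000061527.7; chromosome 15, 101707070 to 101712898, minus strand, mm10) had 0.07, 0 and 0.14 in LPS, against 0.78, 1.20 and 0.50 in saline. Neither overlapped between the groups, and both are listed at 0 in LPS 2. Krt15 passed the filter on low values through saline alone, where it is high, so the direction of its call is tied to the filter. Krt15 fell by 1.94 on the log2(value + 1) scale (SE 0.24; limma adjusted p = 0.000351), and by 4.27 with a pseudocount of 0.1 in place of 1, so the size rests on the pseudocount and no fold is given. With no filter on low values Krt5 was called lower as well (-0.76; limma adjusted p = 0.0258). The LPS and saline tables differ in how many genes are listed at exactly 0, and the part of that difference in these low values was not tested.

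Most other basal cell markers were below the filter. Of 12, 4 passed, and 3 of them fell: the transcription factor gene Snai2 (-1.75, SE 0.16; no value in LPS 3, and past the filter through saline alone, where it is high), Dapl1 (-0.98, SE 0.22) and Bcam (-0.84, SE 0.23), none of them unique to basal cells. The Bcam call ended without LPS 1 (-0.69) or saline 3 (-0.63). Trp63, the defining transcription factor gene of basal cells, had 0.06 and 0.12 in LPS 1 and 2, against 0.52, 0.44 and 0.32 in saline. Krt14, the usual partner of Krt5, had 0.65, 0.10 and 0.27 in LPS, against 0.14, 0.20 and 0.05 in saline, and did not follow it. The summed level of the 10 basal markers with 6 values, before the log, reached 81.4 to 111 in LPS, against 136 to 232 in saline, but Bcam made up 92.0% to 94.7% of it, and the rest summed to 6.47 to 7.90 in LPS, against 10.1 to 12.4 in saline. Of 17 markers of stratified squamous epithelium, as in oesophagus or trachea, 4 passed the filter, with Dmkn higher (1.11, SE 0.24) and Krt80 lower (-2.10, SE 0.29), and Krt4, Sprr3, Sprr1b and Cnfn were at 0 in the LPS libraries that have a value and at or near 0 in saline. The squamous markers summed to 55.5 to 80.1 in LPS, against 68.9 to 75.7 in saline, and without Dmkn to 11.4 to 24.4 in LPS, against 40.9 to 54.9 in saline. The part of airway tissue in the basal keratin differences was not tested.

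Across the keratin family, 52 genes were listed and 11 passed the filter, of which 5 rose and 4 fell. Krt15, Krt83 and Krt85 among them had passed through 1 group alone. The shares over all genes tested were 25.7% higher and 24.3% lower. Beyond the 9 genes, Krt80 had 3.13, 2.84 and 4.07 in LPS, against 5.60, 5.15 and 5.58 in saline (-2.10; limma adjusted p = 0.000586). Krt23 had 2.04, 2.29 and 2.49 in LPS, against 3.48, 3.48 and 3.33 in saline (-1.16, SE 0.16; limma adjusted p = 0.000510). Krt79, also a marker of mouse alveolar macrophages, fell by 1.07 (SE 0.32; limma adjusted p = 0.0197). Leaving out LPS 1, saline 2 or saline 3 ended the Krt79 call (limma adjusted p = 0.0544, 0.0783 and 0.0604). The hair keratins Krt83 (1.14, SE 0.14) and Krt85 (1.04, SE 0.15) rose at low values of at most 1.71, having passed the filter through LPS alone, where they are high, and close copies among hair keratins leave their counting uncertain. Krt10 did not pass (0.14; limma adjusted p = 0.512) and stood at -0.35 with equal sums.

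Lgals3 encodes galectin-3, a sugar-binding protein of epithelium and a strong marker of macrophages. It had 8.54, 8.35 and 8.24 in LPS, against 6.24, 7.89 and 7.05 in saline. The LPS libraries lay close together, and the saline libraries, all lower, were spread widely with saline 1 lowest and saline 2 nearest to LPS. Lgals3 (ENSMUSG00000050335.17; chromosome 14, 47367751 to 47386160, plus strand, mm10) averaged 8.38 ± 0.15 in LPS and 7.06 ± 0.83 in saline (SD, n = 3 each), a difference of 1.32 (SE 0.35; limma adjusted p = 0.0127) or 2.50-fold. The call ended with quantile normalization (0.65), with equal sums (0.52) and with no filter on low values (limma adjusted p = 0.0591). Of 8 other genes on the galectin list tested, 3 rose and 2 fell, against 25.7% and 24.3% of all genes called higher and lower. Lgals3bp, whose protein binds galectin-3 but is not a galectin, rose (1.52, SE 0.26) and is also counted among the monocyte markers below. Lgals9 (0.82, SE 0.27) and Lgals8 (0.58, SE 0.16) rose, and neither passed with quantile normalization or with equal sums, where Lgals8 was at -0.20. Lgals2 fell (-0.83, SE 0.18). Lgals12 fell as well (-0.49, SE 0.15), having passed the filter through saline alone, where it is high. The Lgals9 call ended in 4 of the 6 fits that left out 1 library, and that of Lgals8 without LPS 1.

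Markers of recruited myeloid cells rose in the same libraries as Lgals3. Of 17 monocyte and recruited macrophage markers tested 13 rose and 0 fell, led by Arg1 (3.90), Cd14 (3.59), Ms4a6d (3.30) and Fcgr4 (2.69), and they summed before the log to 1488 to 2074 in LPS, against 641 to 831 in saline. Of 15 neutrophil markers 12 rose and 0 fell, led by Il1r2 (4.81), with sums of 10117 to 25980 in LPS and 776 to 2176 in saline. Of 16 alveolar macrophage markers 2 rose and 7 fell, with Cidec at -2.41, Ear1 at -2.14, Siglecf at -1.63 and Atp6v0d2 at -1.24. Siglecf passed the filter through saline alone, where it is high. This list summed to 1351 to 1424 in LPS, against 925 to 1253 in saline, and without Cd9, which many cell types express, to 636 to 660 in LPS, against 573 to 788 in saline. No marker of these lists was at 0 throughout LPS. The part of myeloid cells in the Lgals3 difference was not tested.

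Of 35 other transitional state genes tested, 26 rose and 2 fell, with a median of 1.05. Among all genes 25.7% were called higher and 24.3% lower, and this list was chosen with earlier results of these data known. The acute phase gene Orm1 (3.92, SE 0.62), Lcn2 (3.71, SE 0.64), the hypoxia factor gene Hif1a (2.67, SE 0.26) and the urokinase receptor gene Plaur (2.50, SE 0.22) rose most, and neutrophils or macrophages also express several of these. Epithelial members were looked at after their values were seen. Cldn4, a claudin of the transitional state, had 2.96, 2.51 and 2.48 in LPS, against 1.76, 1.53 and 1.52 in saline, and rose by 1.05 (SE 0.17; limma adjusted p = 0.00126). Itgb6, whose integrin activates TGF-beta, had 5.45, 4.88 and 4.85 in LPS, against 3.25, 3.89 and 4.06 in saline (1.33, SE 0.24; limma adjusted p = 0.00215). The growth factor genes Areg (1.64, SE 0.25) and Gdf15 (2.12, SE 0.30) rose as well. Sox4 (-1.31, SE 0.18; no value in LPS 3) and Emp2 (-0.63, SE 0.20) fell, and Clu did not pass (0.01). With equal sums 14 of the list were called higher and 7 lower, and with quantile normalization 16 and 7.

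**Figure D4:**
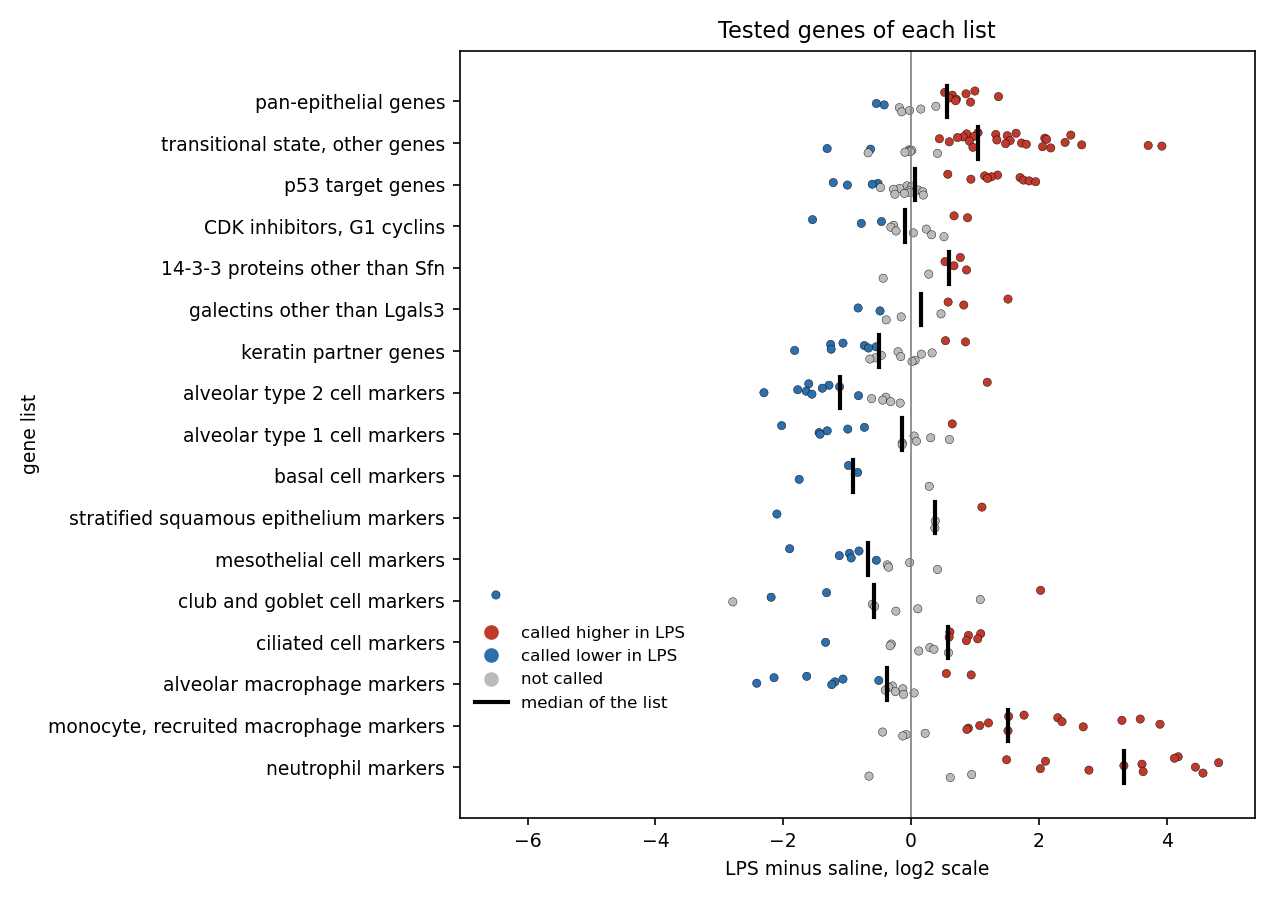
LPS minus saline (horizontal axis, log2 scale) for every tested gene of each list, coloured by whether limma called it higher, lower or neither, with the list median as a black bar. The medians were 1.05 for the other transitional state genes and 0.56 for pan-epithelial genes, against -1.12 for alveolar type 2 markers and 3.33 for neutrophil markers.

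Markers of the cells on either side of the transitional state were more often called lower than called higher, though the summed type 1 level overlapped between the groups. Of 15 alveolar type 2 markers tested 9 fell and 1 rose, with a median of -1.12. Fasn (-2.30) and Scd1 (-1.64), for lipid synthesis, Lpcat1 (-1.77), for surfactant lipid, and the surfactant protein gene Sftpb (-1.60) led the decreases, and Sftpc (-0.39) did not pass. Summed before the log, the type 2 markers with 6 values reached 15043 to 16366 in LPS, against 20085 to 21636 in saline. Sftpc made up 73.7% to 82.3% of that sum in LPS and 73.7% to 78.1% in saline. The rest summed to 2669 to 4016 in LPS, against 4596 to 5499 in saline. Of 13 alveolar type 1 markers 6 fell and 1 rose, with a median of -0.14. With equal sums 0 of them were called higher and 11 lower. Those with 6 values summed before the log to 2414 to 3163 in LPS, against 2617 to 3260 in saline. Scnn1g rose (0.64, SE 0.17; limma adjusted p = 0.0130). Hopx (0.31), Pdpn (0.60), Aqp5 (0.08), Igfbp2 (-0.14) and Vegfa (-0.14) did not pass, all named after their values were seen. Rtkn2 (-2.02), the caveolin gene Cav1 (-1.44), Spock2 (-1.42; no value in LPS 3) and Col4a3 (-1.31) fell most, while Ager, whose receptor is abundant on type 1 cells, had 9.93, 10.26 and 10.09 in LPS, against 9.94, 9.86 and 10.34 in saline. Mesothelial cells, which line the lung surface and also express Krt7, Krt8, Krt18 and Krt19, had 6 markers lower and 0 higher of 10 tested, with Upk3b at -1.90, Gpm6a at -1.12, Lrrn4 at -0.96 and Rspo1 at -0.94. Upk3b has no value in LPS 3. They summed to 284 to 355 in LPS, against 256 to 372 in saline. Without the complement gene C3, which other cells also express, they summed to 62.3 to 92.9 in LPS, against 114 to 135 in saline. Their part in the keratin differences was not tested. Airway lists went both ways: 1 of 10 club and goblet cell markers rose (Hp, 2.03) and 3 fell (Bpifa1, -6.50; Bpifb1, -2.19; Cyp2f2, -1.32), and 6 of 13 ciliated cell markers rose and 1 fell, with Ccdc113 at 1.09, Tmem212 at 1.04, Tekt1 at 0.90 and Sec14l3 at -1.34. Tmem212 and Tekt1 have no value in LPS 3, and without LPS 2 neither passed (limma adjusted p = 0.0602 and 0.0550). With equal sums 0 ciliated markers were called higher and 4 lower, with a median of -0.21, against 0.59 as deposited. Bpifa1 had 0.85, 1.66 and 7.17 in LPS, against 10.03, 10.09 and 9.05 in saline, so LPS 3 stood apart from the other LPS libraries. Its difference was -8.47 without LPS 3 and -5.31 without LPS 1, and Bpifb1 did not pass without saline 2 (-1.97; limma adjusted p = 0.0556). Scgb1a1, a club cell marker picked after its values were seen, had 17.19, 17.32 and 17.30 in LPS, against 16.58, 15.90 and 16.08 in saline. The groups did not overlap, but it did not pass (1.08; limma adjusted p = 0.102). The club and goblet list summed before the log to 153967 to 169955 in LPS, against 67233 to 103986 in saline. Scgb1a1 made up 90.6% to 97.1% of it, and the rest summed to 4491 to 7352 in LPS, against 4159 to 6295 in saline.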

How the data were processed

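RNA from whole lung of 6 mouse samples was sequenced. Per the labels' protocols, RNA was isolated with Trizol, and a directional kit served for the libraries. TopHat and the mm10 build are named per the submitters' processing notes. The counter, the annotation and the scaling are not named in the sources used here. The deposited values, 1 table per library, are on a log2 scale, read from the values as log2 of an expression value plus 1.

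Libraries were grouped by title. Nothing in the labels says that they came from separate animals, so the p-values reflect only how these samples vary, and that variation may be technical. The genes were fitted by limma (version 3.58.1, R 4.3.3), using a variance trend, after keeping genes with a value of at least 1 before the log in at least 3 libraries (13116 genes, 2821 of them with 2 LPS values). P-values were adjusted by Benjamini-Hochberg over all genes tested, and the threshold was 0.05. The fit was tested on simulated data without missing values or a scaling difference between the groups, so that test does not bear on either. Keratin pairs were compared with exact permutation tests. The members and the 17 gene lists were chosen with earlier results of these data known. Named genes are the 9, up to 4 called genes of each list by size (the 2 with the highest mean where none was called), the other tested keratins, and the 5 genes most correlated with Krt8. Of the list entries, Muc16 and Ly6g had no row. Some genes that the naming rule picks are not reported here. Gene positions are from GENCODE M21 and upstream sequences from RefSeq, both on GRCm38 (mm10). Alternatives covered filter, scaling, pseudocount, variance model, missing values, replicate block and each library left out.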

Additional observations from a re-analysis of the deposited data

How the results depend on the processing

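Depth is unknown, and many of the calls rest on the deposited scaling. With quantile normalization 4 of the 9 genes were called (2 higher, Cdkn1a and Sfn; 2 lower, Krt15 and Krt19), and the same counts of 4, 2 and 2 came with equal sums, where Krt8 stood at -0.045. Of all 13116 genes tested, 2694 were called higher and 2787 lower with quantile normalization, and 798 and 8343 with equal sums. Without a filter on low values 3 of the 9 were higher and 2 lower (Krt5 and Krt15), and with a mean of at least 5 Krt15 was not tested, 0 were lower, and 1752 of all genes were lower. Leaving out 1 library at a time left 4 to 6 of the 9 higher and 1 lower. Krt19 ranged from -0.31 to 0.16 over these fits, being 0.12 without saline 2 and 0.08 without saline 3, never past the threshold, and Krt10 ranged from -0.017 (without LPS 2) to 0.26.

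Signs also turned with equal sums for Cdkn2b (-0.10), Ywhab (-0.041), Ywhah (-0.14), Ywhae (-0.28, and -0.18 with quantile normalization), Lgals8 (-0.20), Krt10 (-0.35), 3110040N11Rik (-0.13) and Mrps26 (-0.45), and with quantile normalization for Krt7 minus Krt18 (-0.085). The cause was not tested. With the replicate number as a block, 5417 genes passed, 2793 higher and 2624 lower, against 6565 without it, and the calls of the 9 genes did not change. Libraries that share a number did not deviate together (correlations of deviations from the group means of -0.23, -0.08 and -0.25). Deviations from a mean of 3 libraries are tied to each other, so this check cannot tell whether such libraries were paired. No group has over 3 libraries, so outlying single values could not be tested for.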

Other observations

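Among 10287 other genes with 6 values, those whose deposited values followed Krt8 most closely over the 6 libraries were Serpina3g, a protease inhibitor gene (r = 0.9904), 3110040N11Rik (r = 0.9894), the cholesterol synthesis gene Cyp51 (r = 0.9869), the surfactant protein gene Sftpd (r = 0.9863) and the mitochondrial ribosomal gene Mrps26 (r = 0.9862). These are descriptions over 6 points that fall into the 2 treatment groups and share each library's scaling, with no test. Sftpd had 10.19, 10.67 and 10.78 in LPS, against 8.76, 9.83 and 9.48 in saline, so that, as for Krt8, LPS 1 was lowest in LPS and saline 1 lowest in saline.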
